A study of Danio rerio with 18 samples.

Results

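The genes described here are 8 zebrafish genes tied to cysts of the pronephros, the kidney of the embryo: nphp4, invs, iqcb1, anks6, pkd1a, pkd2, bicc1a and glis2b. They were chosen by name, as orthologues of human nephronophthisis and polycystic kidney disease genes. The rule uses no measured value, but it was set with earlier results of these data known. Rows of the count tables were matched to them through RefSeq accessions. A row was found for 6 of the 8, out of 18356 genes with a symbol. No row matched pkd2 or bicc1a, which are not analysed here. Of 32820 rows 12605 have no symbol, so a gene without a matched row may still be counted among them.

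RNA was sequenced from pronephric duct fragments picked by their green fluorescence at 30 hours after fertilisation. The 8 actl6a libraries were made from embryos given, at the 1-cell stage, an antisense oligonucleotide (morpholino) against the translation of actl6a, the gene of a SWI/SNF chromatin remodelling subunit. The 10 control libraries were made from embryos given a standard control oligonucleotide of the same kind. Embryos of both groups carried the Na, K-ATPase alpha1A4:GFP transgene, which marks the pronephros, and a morpholino lowers a protein for a limited time without changing the gene. Fragments were collected from several embryos dissociated together. The labels do not say whether a library is 1 fragment or a pool or whether libraries came from separate injections, so the p-values measure the spread between these libraries, which may be technical. The groups are in separate tables with separate ranges of library barcodes, so a batch and the group cannot be told apart. The barcodes of the controls fall in 2 further ranges, replicates 1 to 4 and 5 to 10.

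Most of these proteins act in or at the base of the primary cilium, a hair-like projection of kidney tubule cells. Nphp4 is a scaffold of the transition zone, the gate at the base of the cilium, together with Rpgrip1l. Inversin (invs), Anks6 and the kinase Nek8 form a separate segment above it, and Iqcb1 is a calmodulin-binding partner of Cep290 at the ciliary base. Polycystin-1, encoded by pkd1a, is a large membrane protein that pairs with the cation channel polycystin-2. Glis2b is a zinc finger transcription factor of the nucleus and cilium, and its human counterpart is mutated in a rare form of nephronophthisis. In zebrafish, loss of such genes widens the pronephric tubule or glomerulus into fluid-filled cysts, often with body curvature.

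Total counts ran from 1731521 to 3393310 per actl6a library and from 1564673 to 3301873 per control library. The targeted transcript, actl6a (NM_173240.1), had 139 ± 12.4 CPM (counts per 1000000, SD, n = 8) in actl6a libraries and 109 ± 15.6 CPM (SD, n = 10) in controls. It was called higher, with a log2 fold change of 0.34 (edgeR adjusted p 0.0137), and 5 of 8 actl6a libraries were above every control. That call was lost in 4 other settings. A translation block is not read out by its mRNA, so these values do not show how far the protein was lowered. Some duct markers were high in both groups. The kidney cadherin gene cdh17 had 1120 ± 95.9 and 1130 ± 97.0 CPM, and atp1a1a.4, after which the transgene is named, had 1400 ± 184 and 1610 ± 334 CPM in actl6a libraries (SD, n = 8) and controls (SD, n = 10). Other duct markers ranged from high (atp1b1a, means of 1930 and 2000 CPM in the same order) to low (lhx1a, 9.26 and 9.4 CPM). Some spread widely between libraries. Values of lrp2a ran from 113 to 196 CPM in actl6a libraries and from 8.45 to 248 CPM in controls. Those of evx1 ran from 2.58 to 145 CPM and from 1.01 to 59.8 CPM. Whether libraries hold different parts of the duct was not tested. The 4 glomerulus markers summed to 3.87 to 66.1 CPM in actl6a libraries and 1.52 to 30.5 CPM in controls, above the control median in 7 of 8 actl6a libraries, and did not move one way. Podxl had a log2 fold change of 2.05 (edgeR adjusted p 0.0633), while nphs1, too low to test, had 2 counts in all in actl6a libraries and 64 in controls. The part of glomerular cells in the values of the members was not tested. Of markers of other tissues, the summed level of the neural list ran from 94.7 to 742 CPM in actl6a libraries and from 35.3 to 128 CPM in controls. That of the blood list ran from 329 to 5190 CPM and from 120 to 2060 CPM, that of the epidermis list from 976 to 7100 CPM and from 1100 to 2710 CPM, and that of the muscle list from 631 to 12700 CPM and from 192 to 9710 CPM, each with actl6a libraries given before controls. Among marker genes of the neural list 3 of 7 tested genes were called higher and 0 lower, of the blood list 0 of 11, of the epidermis list 2 of 16 higher and of the muscle list 0 of 12. Of all 14462 tested accessions 7.9% were called higher and 8.52% lower. The yolk and liver list summed to 259 to 438 CPM in actl6a libraries and 26.7 to 309 CPM in controls, with 5 of 7 tested genes called higher and 1 lower, and the notochord list to 40.5 to 276 CPM and 8.87 to 141 CPM, with 0 of 4 called. The neural marker elavl4 was at 0 in every control, as were vtg2 and fga of the yolk and liver list, and apobb.1 was at 0 in every actl6a library. Fewer cells of a type and less RNA per cell cannot be told apart in such samples.

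Of the 6 counted members, nphp4, pkd1a, glis2b and iqcb1 had enough counts to be tested, and anks6 and invs did not. In actl6a libraries nphp4 and pkd1a fell to about 0.557 and 0.483 of the control level. For glis2b and iqcb1 no difference was detected, with wide intervals. Thus 2 of 4 tested members were called at an adjusted p below 0.05, both lower, where 16.4% of 14462 tested accessions were called in either direction, 8.52% lower and 7.9% higher. Adjusted p-values are those of the quasi-likelihood test of edgeR, with Benjamini and Hochberg's correction over all tested accessions, and each fold change is the log2 of the actl6a level over that of controls.

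**Figure D1:**
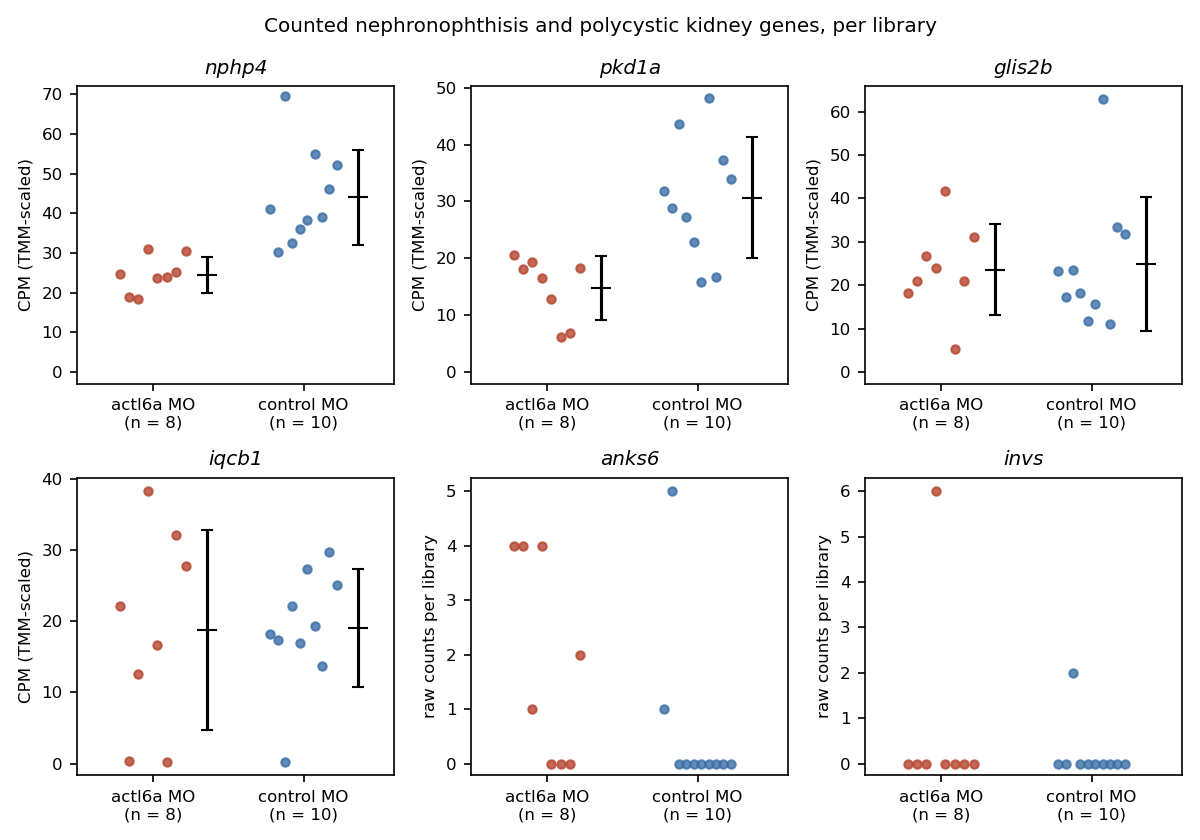
Levels of the 6 counted members in each library, as CPM for the 4 tested genes and as raw counts for anks6 and invs, with 8 actl6a libraries on the left of each panel and 10 controls on the right; bars are mean ± SD. The actl6a libraries of nphp4 sit between 18.5 and 31.0 CPM and the controls between 30.3 and 69.5 CPM, while iqcb1 has 3 libraries near 0.

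The scaffold gene nphp4 (XM_021478419.1) had 18.5 to 31.0 CPM in the 8 actl6a libraries, with a median of 24.3, and 30.3 to 69.5 CPM in the 10 controls, with a median of 40.1. The groups overlapped in a narrow band only: 6 of 8 actl6a libraries were below every control, all 8 were below the control median, and 9 of 10 controls were above every actl6a library. The mean was 24.5 ± 4.57 CPM in actl6a libraries (SD, n = 8) and 44.0 ± 12.0 CPM in controls (SD, n = 10). The log2 fold change was −0.84 ± 0.178 (SE, edgeR adjusted p 0.00388), and 7.49% of tested accessions had a lower one. Raw counts ran from 37 to 86 in actl6a libraries and from 50 to 247 in controls. The coefficient of variation was 18.6% among actl6a libraries and 27.2% among controls, where counting error alone would give 13% and 9.32%. Both observed values were above counting error, and the excess was not tested. With scores of the neural, epidermis, blood and muscle markers as covariates the log2 fold change was −0.89 and its edgeR adjusted p 0.105. Against controls 1 to 4 alone it was −0.83, with an adjusted p of 0.0920, and against controls 5 to 10 alone −0.86, with an adjusted p of 0.00893.

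The counts of nphp4 were nearly those of another row, XM_021472054.1, which has no symbol. The rows had equal counts in 6 of 18 libraries and differed by at most 8 counts, with sums of 1768 for nphp4 and 1819 for the other row. The second row had a log2 fold change of −0.83 ± 0.179 (SE, edgeR adjusted p 0.00444). Such rows may share reads, which was not tested, so the level of nphp4 is uncertain and the rows are not counted as separate falls. No such partner was found for the other 3 tested members, whose closest rows differed by 23.0% of their counts for pkd1a, 27.9% for glis2b and 35.5% for iqcb1, against 3.0% for nphp4.

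The polycystin-1 gene pkd1a (XM_021477406.1) had 6.15 to 20.6 CPM in actl6a libraries, with a median of 17.4, and 15.9 to 48.2 CPM in controls, with a median of 30.3. All 8 actl6a libraries were below the control median, 3 were below every control, and 8 of 10 controls were above every actl6a library. Actl6a replicates 6 and 7 were the lowest at 6.15 and 6.90 CPM, and control replicates 7 and 3 the highest at 48.2 and 43.6 CPM. The mean was 14.8 ± 5.62 CPM in actl6a libraries (SD, n = 8), from 20 to 62 raw counts, and 30.7 ± 10.7 CPM in controls (SD, n = 10), from 42 to 155 raw counts. The log2 fold change was −1.05 ± 0.283 (SE, edgeR adjusted p 0.0166), and 4.74% of tested accessions had a lower one. The edgeR adjusted p was 0.0919 with the marker scores as covariates, where the log2 fold change was −1.49. Against controls 1 to 4 alone it was 0.0858, and against controls 5 to 10 alone 0.0803, with log2 fold changes of −1.16 and −0.98. The direction was the same in each of these fits, and the call was lost in each.

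**Figure D2:**
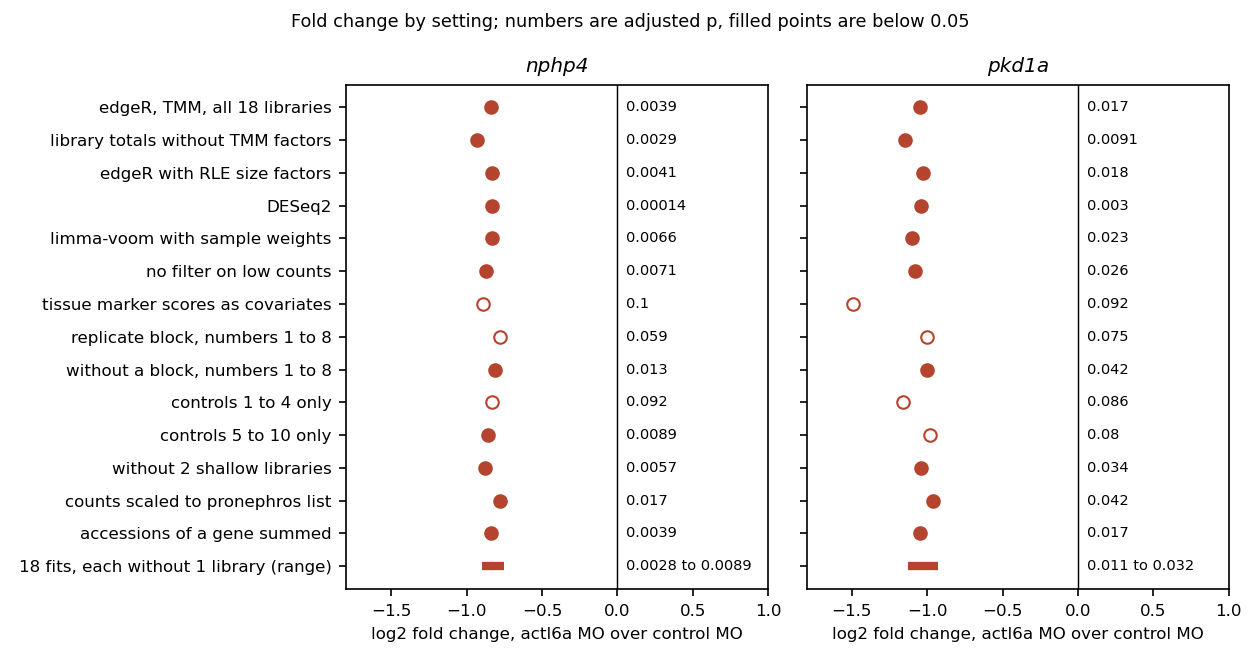
Log2 fold changes of nphp4 and pkd1a (actl6a over control) under each setting tried, with the adjusted p beside each point and filled points below 0.05; the bar spans 18 fits that each left out 1 library. All points lie left of 0, from −0.93 to −0.75 for nphp4 and from −1.49 to −0.93 for pkd1a, and the open points are the settings in which the call was lost.

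Of the marker lists in the covariate fits, the summed neural and blood levels were above the control median in 8 of 8 actl6a libraries, the epidermis level in 6 and the muscle level in 3. Counts scaled to the summed counts of the pronephros list, a scaling added after the values were seen, gave log2 fold changes of −0.78 for nphp4 (edgeR adjusted p 0.0172) and −0.96 for pkd1a (0.0420). Of the 20 tested genes of that list 1 was called higher and 0 lower, with a median log2 fold change of −0.04, against 0.0108 over all tested accessions.

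The transcription factor gene glis2b (XM_021469271.1) had 5.31 to 41.6 CPM in actl6a libraries, with a median of 22.5, and 11 to 63 CPM in controls, with a median of 20.8. The groups overlapped over most of their range, and the control median was exceeded in 6 of 8 actl6a libraries. Its lowest library was actl6a replicate 6 and its highest control replicate 7, which were also the lowest and highest for pkd1a. The log2 fold change was −0.09 ± 0.356 (SE, edgeR adjusted p 0.896), with a 95% interval of −0.79 to 0.61, which leaves room for changes in either direction. The sign turned without actl6a replicate 6, at 0.06, and without control replicate 7, at 0.17.

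Levels of pkd1a and glis2b went together from library to library among controls, and among actl6a libraries only with replicate 6 included. The Pearson correlation of their deviations from the group means, in log2 CPM over 18 libraries, was 0.71, given as a description since libraries share depth and tissue makeup. It was 0.59 among the 8 actl6a libraries and −0.04 without actl6a replicate 6. Among the 10 controls it was 0.84, and 0.79 to 0.89 when any 1 control was left out. The log2 ratio of pkd1a to glis2b was −0.59 ± 0.690 in actl6a libraries (SD, n = 8) and 0.39 ± 0.412 in controls (SD, n = 10). The difference of −0.98 had a two-sided exact permutation p of 0.00123, or 0.0074 adjusted over the 6 pairs of tested members. Leaving out 1 library gave differences from −1.09 to −0.83, with adjusted p from 0.00321 to 0.0185. The ratio of nphp4 to glis2b differed by −0.75, with an exact permutation p of 0.0454 and an adjusted p of 0.136. Without actl6a replicate 6 that difference was −1.01, with an adjusted exact permutation p of 0.00818. Leaving out any other library did not bring it past the threshold. The ratio of nphp4 to pkd1a differed by 0.24 (exact permutation p = 0.389, adjusted 0.685), and the 3 pairs with iqcb1 had adjusted p of 0.685 to 0.763. These pair comparisons were added after the values of the members were seen. They were not run with the marker scores, a replicate block or subsets of the controls, the settings in which the call of pkd1a was lost.

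**Figure D3:**
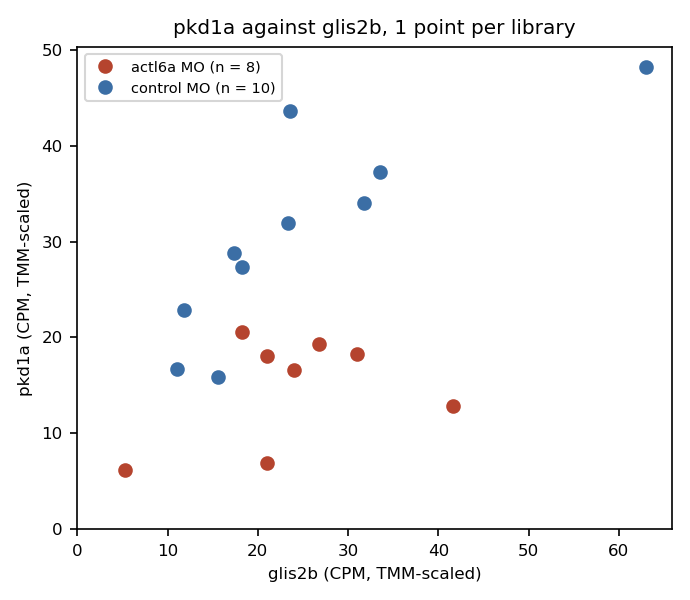
CPM of pkd1a (vertical) against glis2b (horizontal), 1 point per library, for 8 actl6a libraries and 10 controls. Controls rise along a diagonal up to 63 CPM of glis2b and 48.2 CPM of pkd1a, and the actl6a libraries stay at or below 20.6 CPM of pkd1a over 5.31 to 41.6 CPM of glis2b.

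The ciliary base gene iqcb1 (NM_001008622.1) had 0.279 to 38.3 CPM in actl6a libraries, with a median of 19.4, and 0.281 to 29.7 CPM in controls, with a median of 18.8. Its values fell into a low and a high set in both groups. Actl6a replicates 2 and 6 and control replicate 3 had exactly 1 count each, and the other 15 libraries had 26 to 107 counts. The coefficient of variation was 74.6% among actl6a libraries and 43.6% among controls, against 14.8% and 14.2% from counting error. The log2 fold change was −0.02 ± 0.641 (SE, edgeR adjusted p 0.990), with a 95% interval of −1.28 to 1.24. A change in iqcb1 of less than about that size was not detectable here. The sign of the fold change turned in 7 of 18 fits that left out 1 library, with values from −0.26 to 0.17.

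Single counts in otherwise well counted rows were not confined to iqcb1. Among 116684 entries of the tables whose accession had a median over 100 counts, scaled to the depth of the library, 166 were exactly 1, while 26 were 0 and 50 were 2. These 166 entries came from 80 accessions, with 77 in actl6a libraries and 89 in controls. For accessions with a scaled median over 30, the range of iqcb1, 365 entries were exactly 1, 239 were 0 and 193 were 2. The same pattern was seen in hnf1ba, a kidney transcription factor gene chosen after its values were seen, whose row NM_131880.3 had 1 count in control replicates 3 and 7 and 402 to 942 counts in the other 16 libraries. What gave these values was not tested.

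**Figure D4:**
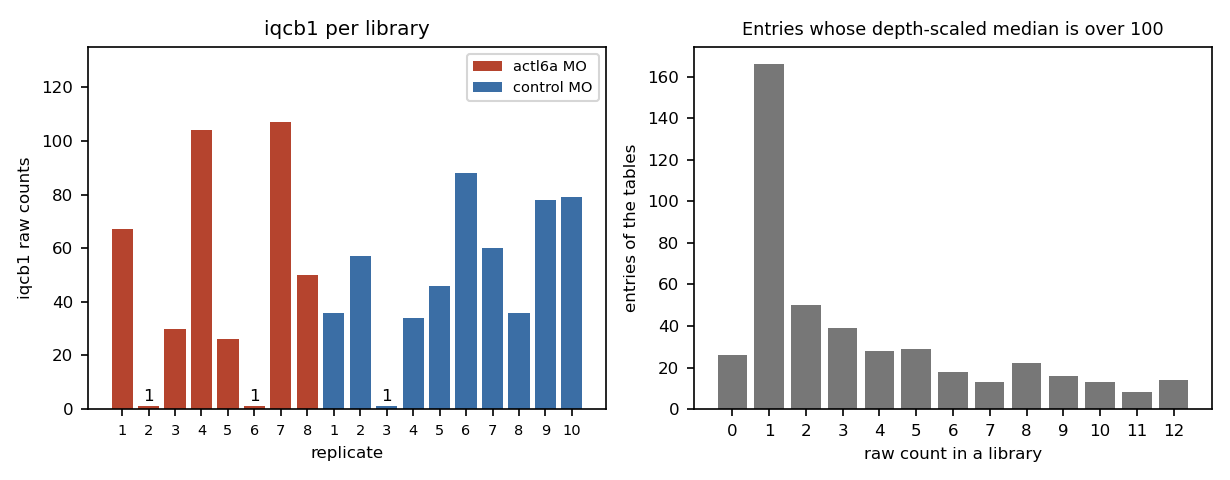
Left, raw counts of iqcb1 in each of 8 actl6a and 10 control libraries, with the 3 libraries at 1 count marked. Right, how many entries of the count tables had each raw count from 0 to 12 among entries whose depth-scaled median was over 100; the bar at 1 holds 166 entries, against 26 at 0 and 50 at 2.

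The rows matched to members of the inversin segment were hardly counted. The ankyrin repeat gene anks6 (NM_001005928.1) had 1 to 4 counts in 5 of 8 actl6a libraries and 0 in the other 3. Among controls it had 1 and 5 counts in replicates 1 and 2 and 0 in the other 8. The inversin gene invs (XM_005158039.4) had 6 counts in actl6a replicate 4, 2 counts in control replicate 3 and none in the remaining 16 libraries. The limit set by a count of 0, taken as 3 counts, was 0.838 to 1.92 CPM in actl6a libraries and 0.844 to 1.95 CPM in controls, for counting error alone. Both rows were at or near that limit in both groups, so no fold change is given, and a difference was not detectable in them. Of 32820 rows 12605 have no symbol, and whether reads of these genes lie there was not tested. A low row is therefore not taken as a low level of the gene.

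Among 30 further genes, listed here as nephronophthisis or related genes, 4 were called lower in actl6a libraries and 0 higher. Of the 30, 20 had a row and 18 were tested, with a median log2 fold change of −0.26 against 0.0108 over all 14462 accessions, of which 8.52% were called lower. Log2 fold changes were below 0 for 16 of the 18, and for 7087 of all 14462 accessions. The summed level of all rows of the list was 778 to 887 CPM in actl6a libraries and 929 to 1080 CPM in controls. The largest change was that of nek8, the kinase of the inversin segment that Anks6 binds. It had 3.69 to 12.6 CPM in actl6a libraries and 8.87 to 36.5 CPM in controls, with 6 of 8 actl6a libraries below every control. Its log2 fold change was −1.37 ± 0.290 (SE, edgeR adjusted p 0.00390). The transition zone gene rpgrip1l had 7.68 to 13.9 CPM in actl6a libraries and 11 to 41.5 CPM in controls, with 5 of 8 actl6a libraries below every control and a log2 fold change of −1.11 ± 0.238 (SE, edgeR adjusted p 0.00411).

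The other called genes of that list carry cargo along the cilium. For ift172, of the anterograde train, levels were 49.6 ± 8.49 CPM in actl6a libraries (SD, n = 8) and 77.4 ± 12.6 CPM in controls (SD, n = 10), a log2 fold change of −0.64 (edgeR adjusted p 0.00209). For wdr19, of the retrograde train, they were 50.6 ± 11.8 CPM in actl6a libraries and 80.4 ± 14.3 CPM in controls, a log2 fold change of −0.67 (edgeR adjusted p 0.00382). Other transition zone and basal body genes of the list were not called, and their log2 fold changes differed. Those of b9d1 (−0.02, edgeR adjusted p 0.915), mks1 (−0.05, adjusted p 0.935) and ahi1 (0.10, adjusted p 0.633) were near 0. Those of tmem216 (−0.31, adjusted p 0.0855), tctn2 (−0.32, adjusted p 0.239) and sdccag8 (−0.55, adjusted p 0.167) were lower. With the marker scores as covariates these calls were lost in edgeR, with log2 fold changes of −1.50 for nek8 (adjusted p 0.120), −1.34 for rpgrip1l (0.0692), −0.60 for ift172 (0.122) and −0.39 for wdr19 (0.280). Against controls 1 to 4 alone 1 gene was called.

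**Figure D5:**
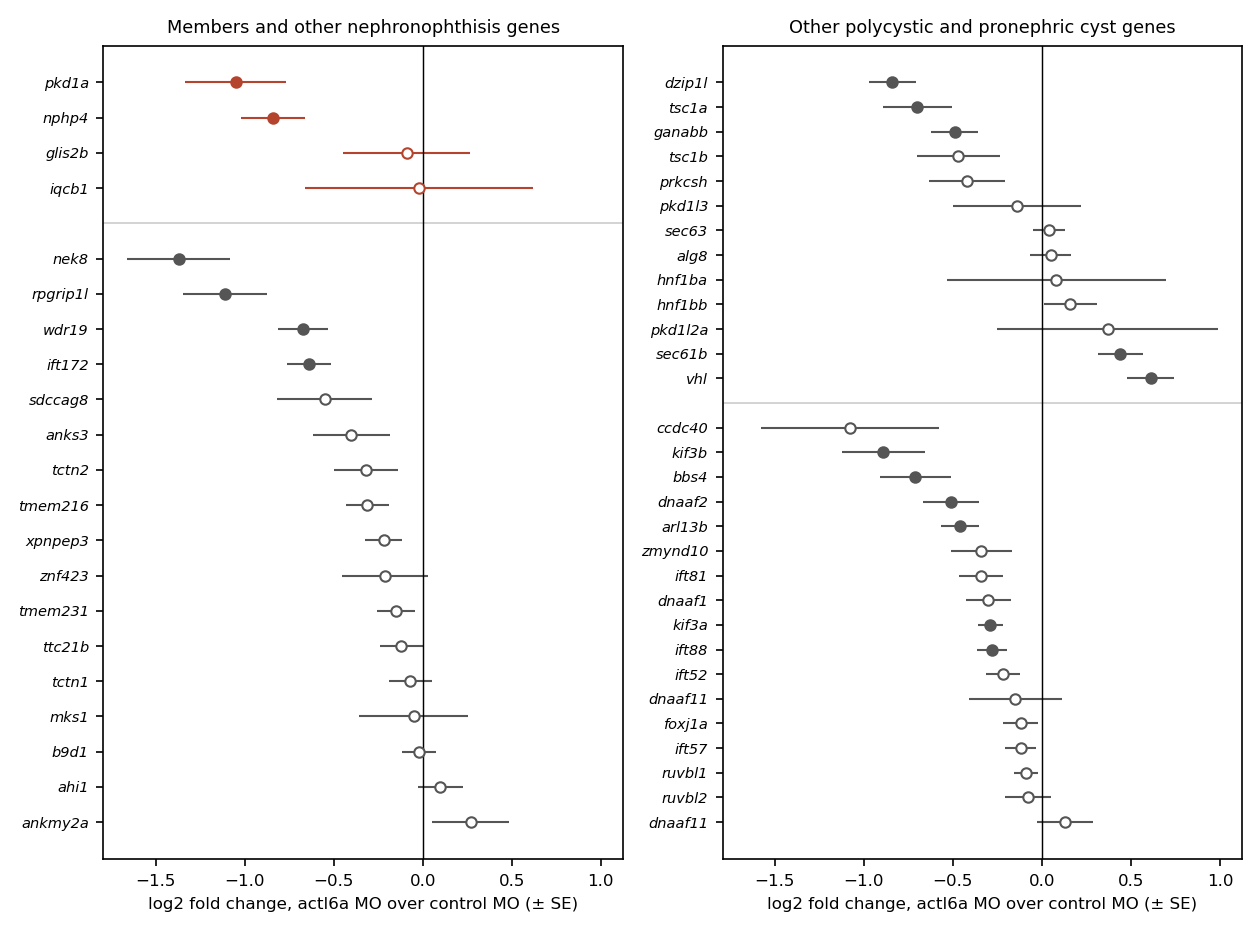
Log2 fold changes (actl6a over control) with SE for the 4 tested members in red, and for tested accessions of the other nephronophthisis, other polycystic and other pronephric cyst lists in grey; filled points have an adjusted p below 0.05. The lowest point of the nephronophthisis list is nek8 at −1.37, while the polycystic list runs from −0.84 to 0.61.

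Genes around polycystins went in both directions. Of 30 listed, 18 had a row and 13 were tested, with 3 called lower and 2 higher. Over all 14462 tested accessions 8.52% were called lower and 7.9% higher. The median log2 fold change of the list was 0.04, a sign that turned under some settings (−0.17 to 0.11 over all settings tried). The polycystin relatives pkd1l3 and pkd1l2a were tested, with log2 fold changes of −0.14 ± 0.359 (SE) and 0.37 ± 0.621 (SE) (edgeR adjusted p 0.829 and 0.732), and no row matched the paralogues pkd1b and glis2a. The lowest p of this list was that of dzip1l, a transition zone gene that is mutated in a human recessive polycystic disease. It had 36.3 to 66.6 CPM in actl6a libraries and 71.1 to 111 CPM in controls. Its log2 fold change was −0.84 ± 0.131 (SE, edgeR adjusted p 4.29e-04), and with the marker scores as covariates it was −0.44, with an adjusted p of 0.145.

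The glucosidase gene ganabb, whose human counterpart helps mature polycystins in the endoplasmic reticulum, changed by −0.49 on the log2 scale (edgeR adjusted p 0.0147), and the growth regulator gene tsc1a by −0.70 (adjusted p 0.0194). Called higher were vhl, a gene of the oxygen sensing pathway, and sec61b, of the channel that takes proteins into the endoplasmic reticulum. For vhl levels were 90.1 ± 22.8 CPM in actl6a libraries (SD, n = 8) and 58.9 ± 6.77 CPM in controls (SD, n = 10), a log2 fold change of 0.61 (edgeR adjusted p 0.00477), and 6 of 8 actl6a libraries were above every control. For sec61b the change was 0.44 (edgeR adjusted p 0.0211), a call that did not hold in the absence of actl6a replicate 3 (0.36, adjusted p 0.0511). With the marker scores as covariates the calls of ganabb (−0.17, edgeR adjusted p 0.664), tsc1a (−0.34, 0.474) and vhl (0.72, 0.0700) were lost, and sec61b was called (0.63, 0.0357). With counts scaled to the pronephros list the calls of ganabb (adjusted p 0.0628) and tsc1a (0.0649) were lost. Against controls 1 to 4 alone these 4 genes were not called, with edgeR adjusted p of 0.0846 to 0.208, and dzip1l was (0.0197).

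Of 31 gene names listed here as other pronephric cyst genes, most of them of cilia and their transport, 22 had a row. From these, 17 accessions of 16 genes were tested. There were 6 called lower and 0 higher, where 8.52% of all tested accessions were called lower and 7.9% higher. The median log2 fold change of the list was −0.29. Values were below 0 for 16 of 17 accessions of the list and for 7087 of all 14462 tested. The summed level of all rows of the list was 1360 to 1540 CPM in actl6a libraries and 1550 to 1900 CPM in controls. The ciliary membrane GTPase gene arl13b had 60.1 ± 9.89 CPM in actl6a libraries (SD, n = 8) and 82.6 ± 10.7 CPM in controls (SD, n = 10), a log2 fold change of −0.46 (edgeR adjusted p 0.00744). The kinesin motor genes kif3b and kif3a had log2 fold changes of −0.89 (edgeR adjusted p 0.0142) and −0.29 (adjusted p 0.00862), the BBSome gene bbs4 −0.71 (adjusted p 0.0208) and the transport gene ift88 −0.28 (adjusted p 0.0280). When actl6a replicate 1 or 3 was left out, ift88 was no longer called (adjusted p 0.0538 and 0.0573). With counts scaled to the pronephros list 1 gene of this list was called, and with the marker scores as covariates all 6 calls were lost.

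The tested genes whose level went most closely with a member from library to library were picked by the highest Pearson correlation of log2 CPM deviations from the group means, over 18 libraries and 8899 candidate rows with a symbol and at least 10 CPM. These are descriptions, without a test. For nphp4 they were the Kelch domain gene klhdc10 (r = 0.82) and ints2 (0.79), a subunit gene of the Integrator complex. For pkd1a they were the receptor gene notch1b (0.79) and utp20 (0.77), of ribosome assembly. For glis2b they were the semaphorin gene sema3b (0.77) and LOC100535633 (0.75). For iqcb1 they were the alpha-tubulin gene tuba8l2 (0.82) and the creatine transporter gene slc6a8 (0.81), over values that include the 3 libraries in which iqcb1 had 1 count. The edgeR adjusted p between groups was 0.231 to 0.890 over these 8 genes.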

How the data were processed

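Values were counts, deposited by the authors as whole, unnormalised numbers per RefSeq accession, in 1 table for 8 actl6a and 1 for 10 control libraries. Per the submitters' processing notes, cutadapt, FastQC, STAR, featureCounts and edgeR were used with the build GRCz11, and versions and settings are not given in the sources used here. Strand use and molecular identifiers are not given either. Columns were matched to samples by library barcode. Group, table and barcode range coincide, so a batch of either kind cannot be told apart from the group. An accession missing from 1 table was taken as 0 there.

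Symbols came from a RefSeq table of the assembly GRCz12tu, used for names alone. Of 32820 accessions 20215 matched, 9629 of them after the version was left out. Transcript lengths were not used, so levels are not compared between genes.

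With edgeR 4.0.16 in R 4.3.3, filterByExpr kept 14462 accessions, libraries were scaled by TMM, and group was the term of a quasi-likelihood fit to all 18 libraries. SE is the absolute log2 fold change over the square root of F, and 95% intervals are 1.96 SE. CPM use TMM-scaled totals. In simulated counts of 14462 accessions with 200 changed, the fit recovered 52% of changes of 1 and 80% of changes of 2 on the log2 scale. It called 135 accessions, of which 3 were unchanged. In the data 2375 accessions were called, so the cutoff set by the correction differs and these shares need not hold there. Alternatives used DESeq2 1.42.0, limma 3.58.1, other scalings, covariates, subsets of controls, a replicate block and each library left out.

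Named were the members, actl6a, atp1a1a.4, up to 5 called genes with the lowest p per list, paralogues of members and the 2 rows most like each tested member. Others stand for contrast. Members and lists were chosen with earlier results of these data known. Single values of some genes of the lists are not reported here, while the counts and medians of the lists include them.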

Additional observations from a re-analysis of the deposited data

Results flagged for a closer look

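The levels of the 4 tested members and the other named genes of the lists were screened for a library far from the rest of its group, in 40 groups of libraries, of which chance alone marks about 1 in 20. There were 4 such libraries. For glis2b, control replicate 7 had 63 CPM, with the next control at 33.5 CPM. For rpgrip1l, control replicate 9 had 41.5 CPM, with the next at 26.0 CPM. For kif3a, control replicate 6 was the lowest at 72.6 CPM, with the next at 83.8 CPM. For atp1a1a.4, control replicate 4, which had the fewest counts of all libraries, had 2510 CPM, with the next at 1730 CPM.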

How the results depend on the processing

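Both calls among the members, and all fold changes of nphp4 and pkd1a, kept their direction in every setting run, while calls were lost in some. With tissue marker scores as covariates 361 accessions and 0 members were called (nphp4 −0.89, unadjusted p 0.00722; pkd1a −1.49, unadjusted p 0.00525; iqcb1 0.84), with 0, 1 and 0 genes of the other nephronophthisis, polycystic and cyst lists. Same-numbered libraries were mostly not alike. Correlations of deviations ran from −0.12 to 0.32 over the 8 same-numbered pairs, with 1 over 0.1. Of the 8 actl6a libraries, 0 correlated best with their own number. The labels do not say whether same-numbered libraries belong together, and these correlations cannot settle it. The replicate block over numbers 1 to 8 gave 1058 accessions and 0 members (nphp4 −0.78, adjusted p 0.0589; pkd1a −1.0, adjusted p 0.0755; glis2b 0.08), with 2 polycystic and 1 cyst gene, against 1850 accessions and 2 members in the same libraries without a block (iqcb1 0.14, glis2b 0.01). Controls 1 to 4 alone gave 511 accessions and 0 members (nphp4 −0.83, pkd1a −1.16, iqcb1 0.39, glis2b 0.18), with 1, 1 and 0 genes of the lists. Controls 5 to 10 alone gave 1419 accessions and 1 member, nphp4 (−0.86, edgeR adjusted p 0.00893), with 3 polycystic and 2 cyst genes. In that fit pkd1a was not called (−0.98, edgeR adjusted p 0.0803). Counts scaled to the pronephros list gave 3 polycystic and 1 cyst gene and iqcb1 at 0.02, and without the 2 libraries under 2000000 counts iqcb1 was 0.03. Library totals without TMM factors called 852 accessions higher and 1608 lower, and scaling to the pronephros list 1282 and 647, against 1143 and 1232. Leaving out each library gave 1876 to 2417 accessions, 2 members each time, nphp4 from −0.90 to −0.75, pkd1a from −1.13 to −0.93, iqcb1 and glis2b both from −0.26 to 0.17. With limma-voom and sample weights iqcb1 was −0.71 (adjusted p 0.635), its lowest value in any setting. The ratio of iqcb1 to glis2b differed by −0.90 to 0.02 and of nphp4 to iqcb1 by −0.79 to 0.22. The cause of the lost calls was not tested, and some of these fits also had fewer libraries.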
